A study of Mus musculus with 28 samples.

Results

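The expression of 33 genes of the p53 pathway was read in mIMCD-3 cells, an epithelial line of the mouse kidney that stems from its inner medullary collecting duct. The set holds Trp53, which encodes p53, the genes that control p53, and its established transcriptional targets. The genes were chosen by symbol, and each of the 33 symbols matched 1 of the 45706 Ensembl identifiers listed for all libraries. By role, 4 were p53 and its regulators, 5 act in cell cycle arrest, 14 in apoptosis, 6 in DNA repair and nucleotide supply, and 4 in stress responses and metabolism.

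p53 is a transcription factor that is stabilised after DNA damage and other stress and then induces genes for arrest, repair and cell death. MDM2 and MDM4 bind p53 and restrain it, MDM2 as a ubiquitin ligase that is itself a p53 target, and ARF, one of the products of Cdkn2a, restrains MDM2. mIMCD-3 is known as a line from a mouse carrying the early region of SV40, whose large T antigen binds and inactivates p53 and RB. In cells with T antigen, p53 protein is typically abundant while its targets are poorly induced.

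The study asked how far wild-type cells differ among themselves, with 28 RNA sequencing libraries in 7 groups of 4. Polyclonal WT cells were the unsorted line, monoclonal WT5 was grown from 1 sorted cell of it, and subclones 1 to 5 were each grown from 1 sorted cell of WT5. All groups were wild-type mIMCD-3 cells with no gene edited and no agent added, and WT5 and every subclone stand for 1 clone each. The study's methods give a harvest some days after confluence for protein work and do not state the confluence of the RNA cultures. Expression was given as TPM, a length-corrected level of transcripts that sums to the same total in every library. The reads behind a value are therefore unknown. Polyclonal cells were sequenced as short single-end reads and WT5 as longer paired-end reads at another time, so the cell line and the sequencing cannot be told apart. The subclones stand in another table than WT5, and a difference of all subclones from WT5 cannot be told apart from a difference of the tables. The replicates of a line are called biological in one place and technical in another, so p-values measure only the spread between these libraries, which may be technical.

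The lines carried epithelial transcripts. Krt8, a simple epithelial keratin, lay between 322.61 and 1048.4 TPM, and Epcam between 427.38 and 618.86 TPM over all libraries. Aqp2, the vasopressin-regulated water channel that defines principal cells, was listed at 0 in every library. The summed TPM of 13 collecting duct and epithelial markers ran from 1814 to 2082 in polyclonal WT cells, from 3920 to 4052 in WT5 and from 2391 to 3156 in the subclones. The sum rests on a few abundant genes, and the median log2 difference of the 11 markers tested between WT5 and polyclonal WT cells was -0.04. Krt8 and Cldn4 were called higher in WT5 by the 2-fold rule given below. Gata3, Avpr2 and Scnn1a were called lower, of which Gata3, a transcription factor of the collecting duct, at -6.94 and Avpr2, the vasopressin receptor, at -8.56 on the log2 scale were also called by the z-score rule. Summed fibroblast markers stayed at or below 2.78 TPM and endothelial markers at or below 0.29 TPM. The leukocyte markers summed to between 12.58 and 14.31 TPM in polyclonal WT cells and between 28.44 and 55.63 TPM in the other lines, mostly from Csf1r, with Cd3e at 0 throughout. Pseudogenes took 13.77% of all TPM in polyclonal WT cells, 2.706% in WT5 and between 5.314% and 6.481% in the subclone means. The part of these shifts in the results on the p53 genes was not tested. The viral T antigen is not among the mouse identifiers and was not analysed here, so the name SV40-transformed could not be checked on these values.

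Of the 33 genes, 30 had TPM above 0 in all 28 libraries. The exceptions were Eda2r, Fas and Ak1. Eda2r, a receptor for ectodysplasin, was at 0 in every library but polyclonal replicate 3, which had 0.02 TPM. Its exact permutation p over the 70 assignments of 4 and 4 libraries was 1, where the smallest possible is 0.02857. Fas, the classical death receptor, stayed at or below 0.84 TPM, and Ak1, an adenylate kinase, at or below 0.65 TPM. The most abundant members were Cdkn2a, Trp53 and Cdkn1a, whose library values lay between 336.98 and 495.58, between 138.74 and 241.13, and between 152.68 and 289.64 TPM. The replicate libraries of a line scattered by a median coefficient of variation of 4.932% over the members in WT5 and 9.692% in subclone 5, against 5.633% and 12.12% over all genes.

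Differences between lines were read on log2(TPM), relative to the median of all genes tested in each library, with limma and Benjamini-Hochberg adjustment over all genes tested. A gene was called by the 2-fold rule at an adjusted p below 0.01 and a log2 difference above 1 in size. It was called by the z-score rule at the same adjusted p and a difference above 1 in log2(TPM) z-scored within each library. The z-scores and thresholds of this rule are those of the study's methods, but its test is limma, where the methods name one with unequal variances. A z-score difference of 1 corresponds to 8.562-fold for WT5 against polyclonal WT cells and to 7.941-fold for subclones against WT5.

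Between WT5 and polyclonal WT cells, Perp fell by an order of magnitude and Sesn1 by several fold, Zmat3 and Trp53inp1 fell by over 2-fold, and most genes at the core of the pathway moved by less. By the z-score rule 1 of the 32 members tested was called, Perp, where 5.43% of the 13723 genes tested were called, 3.12% as lower. By the 2-fold rule 5 members were called and all 5 were lower in WT5 (Perp, Sesn1, Ak1, Trp53inp1 and Zmat3), where 23.2% of all genes were called, 12.0% lower and 11.3% higher. At the adjusted p alone 13 members were higher and 12 lower, which is 25 of 32, against 65.4% of all genes, 31.1% higher and 34.3% lower. The median log2 difference was 0.11 over the members and -0.046 over all genes.

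**Figure D1:**
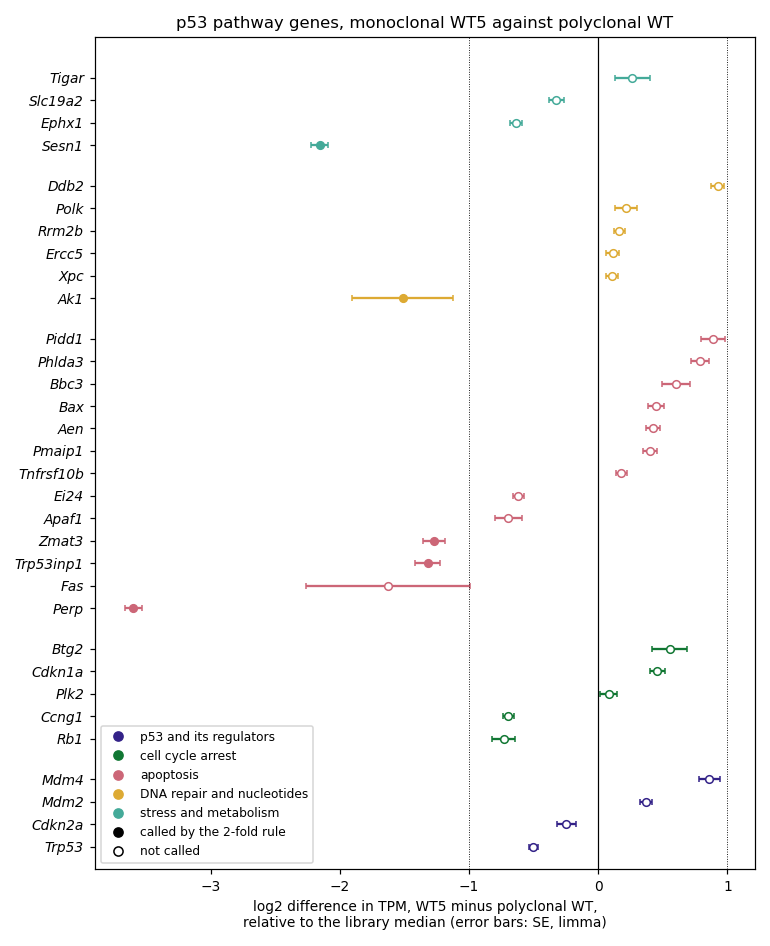
The log2 difference in TPM, WT5 minus polyclonal WT, is plotted on the horizontal axis for the 32 genes tested, grouped by role, with bars for the standard error from limma and dotted lines at -1 and 1. Filled points mark the 5 genes called by the 2-fold rule, all to the left of -1, from Ak1, Zmat3 and Trp53inp1 to Sesn1 at -2.16 and Perp at -3.60.

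Before this adjustment for the library median, the median log2 difference of all genes was 0.24, so the choice of scale moves every value. Over the 5 scalings compared, 18 members were higher in WT5 and 13 lower under each one, and only Cdkn2a changed direction, with log2 differences of -0.25 relative to the median and 0.042 without centring. Of these, 11 of the higher and 10 of the lower members passed the adjusted p under every scaling. Tnfrsf10b, Rrm2b, Slc19a2 and Ak1 passed here but not under every scaling. Without centring, 7 members were called by the 2-fold rule in place of 5, and Mdm4, Pidd1, Phlda3 and Ddb2 were then among them as higher, at 1.15, 1.18, 1.08 and 1.22 on the log2 scale, while Zmat3 and Ak1 were not. With genes above 0 in any library and log2(TPM + 0.1), Perp lost its call by the z-score rule, which left 0 members, and 20 members were called by the 2-fold rule in place of 5, of which Perp and Sesn1 were lower. Trp53 and Rb1 also changed direction there, to 0.42 and 0.19. The shares of all genes called without centring and in this last setting are not given here. The counts of 7 and 20 therefore have no background beside them. In TPM itself, 17 members were higher in every WT5 library than in any polyclonal library, where 48.5% of all genes were so, and 11 were lower in every one, where 23.8% of all genes were.

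Trp53 transcripts were abundant in every line. Trp53 measured 228.38, 239.39, 241.13 and 231.73 TPM in the polyclonal libraries and 194.93, 203.97, 212.05 and 201.37 TPM in WT5. The groups did not overlap, and every WT5 library was lower. The log2 difference was -0.50 (SE 0.0352, adjusted p = 6.417e-06, limma). Of the 50-base stretches of the longest Trp53 transcript, 3.038% also occur in other genes, first among them the pseudogene Trp53-ps, which was at 0 on average in every line.

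The inhibitors of p53 moved the other way. Mdm2 had 42.41, 43.23, 42.36 and 45.21 TPM in polyclonal WT cells and 64.66, 72.22, 70.5 and 66.85 TPM in WT5, without overlap, a log2 difference of 0.37 (SE 0.0451, adjusted p = 0.0001412, limma). Mdm4 had 12.47, 10.14, 11.42 and 12.68 TPM in polyclonal WT cells and 24.37, 27.96, 27.09 and 24 TPM in WT5, a log2 difference of 0.86 (SE 0.0809, adjusted p = 3.314e-05, limma). Both inhibitors were higher in every WT5 library than in any polyclonal library. Mdm4 shares 15.48% of its 50-base stretches with Mdm4-ps, a pseudogene that averaged 0.105 TPM in polyclonal WT cells and 0.2425 TPM in WT5.

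Cdkn2a, whose locus encodes the CDK inhibitor p16 and ARF from overlapping reading frames, could only be read as 1 sum. It had 392.92, 464.21, 495.58 and 412.62 TPM in polyclonal WT cells and 446.49, 442.39, 453.45 and 467.66 TPM in WT5. The WT5 libraries lay within the polyclonal range, and the adjusted p of 0.01587 (limma) did not pass.

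**Figure D2:**
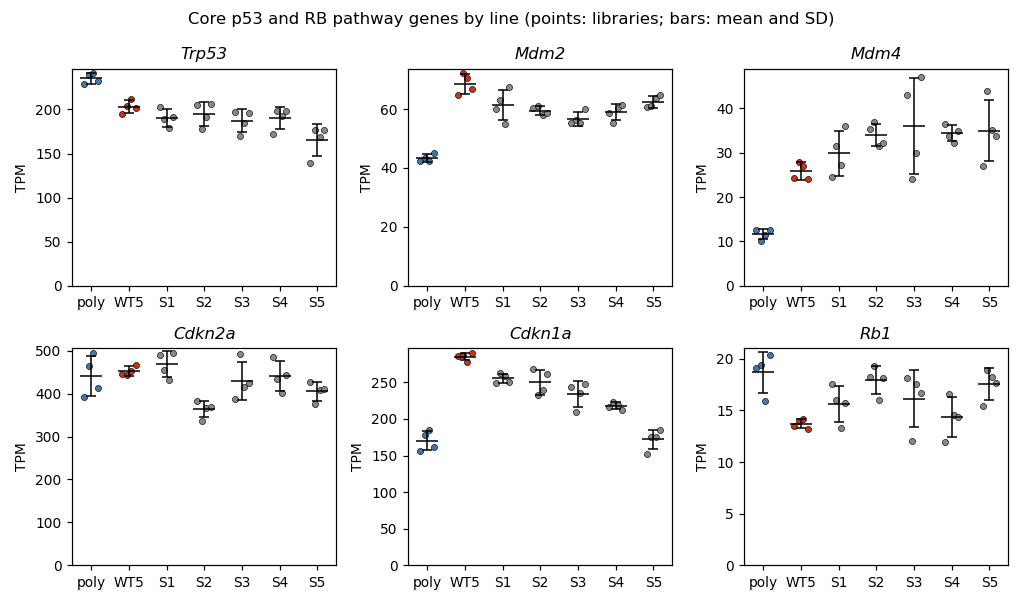
TPM of Trp53, Mdm2, Mdm4, Cdkn2a, Cdkn1a and Rb1 is plotted for each library of the 7 lines (poly, polyclonal WT; S1 to S5, subclones), with a point per library, a horizontal bar for the mean and whiskers for the SD of 4 libraries, and all axes from 0. Mdm2 and Mdm4 lie higher in WT5 and every subclone than in polyclonal WT cells, Trp53 lies lower, and Cdkn1a averages 285 TPM in WT5 but 172 TPM in subclone 5, close to the polyclonal mean of 170 TPM.

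Cdkn1a encodes p21, the CDK inhibitor through which p53 arrests the cell cycle, and is the best known p53 target. Cdkn1a had 156.77, 177.81, 185.02 and 161.54 TPM in polyclonal WT cells and 286.08, 287.12, 278.08 and 289.64 TPM in WT5. The groups were apart, and the log2 difference relative to the library median was 0.46 (SE 0.0598, adjusted p = 0.000219, limma). The transcript of an unnamed gene model shares 10.49% of the 50-base stretches of Cdkn1a.

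A promoter window of Cdkn1a is shown because it holds the match to the p53 response element with the fewest mismatches among these genes. That of Ccng1 is shown because it holds the next. RefSeq promoter windows of 300 bases, 250 before and 50 after a transcription start (GRCm38.p6), were at hand for 24 of the 33 genes, in 35 windows. The element was searched as a pair of 10-base half-sites with a spacer of 0 to 13 bases, and since it is its own reverse complement, the search covered both strands. The central C and G of each half-site had to be present, so mismatches were counted only at its other positions. It occurred without a mismatch in 24 of all 32851 windows, 0.07306%, of which 1 belongs to Cdkn1a. With up to 1 mismatch it occurred in 206 windows, 0.6271%, and in Cdkn1a and Ccng1 among these genes, and with up to 2 mismatches in 1342 windows, 4.085%, with Bax and Sesn1 added. The Cdkn1a window shown lies on the plus strand at chr17:29090729-29091028. Another Cdkn1a window, at chr17:29093519-29093818, held no match with up to 2 mismatches. The Ccng1 window lies on the minus strand at chr11:40755237-40755536. Both sequences are written 5′ to 3′, and capitals mark the half-sites of the match with the fewest mismatches. The length of the spacer was not weighed, and in this Cdkn1a match it is 12 bases.
Cdkn1a promoter: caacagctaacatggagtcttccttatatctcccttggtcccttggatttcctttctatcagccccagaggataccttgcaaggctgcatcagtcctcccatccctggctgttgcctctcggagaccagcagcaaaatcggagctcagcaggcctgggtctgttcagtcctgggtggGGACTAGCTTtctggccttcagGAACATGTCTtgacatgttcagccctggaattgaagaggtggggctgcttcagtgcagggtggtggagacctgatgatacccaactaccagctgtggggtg
Ccng1 promoter: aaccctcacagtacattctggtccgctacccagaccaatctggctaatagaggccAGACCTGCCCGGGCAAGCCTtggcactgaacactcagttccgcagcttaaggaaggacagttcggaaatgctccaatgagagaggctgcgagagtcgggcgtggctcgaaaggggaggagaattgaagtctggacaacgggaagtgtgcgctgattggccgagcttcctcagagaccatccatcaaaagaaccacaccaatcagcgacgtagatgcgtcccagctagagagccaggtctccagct
In Cdkn1a the second half-site is also the first of another match, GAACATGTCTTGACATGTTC, which has no spacer and 1 mismatch. It begins 51 bases before the transcription start of the window shown. A match describes the letters and does not show binding.

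Ccng1, a cyclin G that is induced by p53, went against Cdkn1a. It had 35.03, 33.79, 36.22 and 36.72 TPM in polyclonal WT cells and 26.27, 26.08, 28.78 and 25.86 TPM in WT5, and its log2 difference was -0.70 (SE 0.0435, adjusted p = 3.434e-06, limma). Among the 24 genes with a promoter window, the 2 whose matches had the fewest mismatches differed in direction between the same libraries. A link between matches and direction was not tested.

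The other genes of cell cycle arrest were split. Rb1, the retinoblastoma protein that T antigen also binds, had 19.09, 19.37, 15.88 and 20.37 TPM in polyclonal WT cells and 13.45, 13.95, 14.16 and 13.22 TPM in WT5. All WT5 libraries were lower, with a log2 difference of -0.73 (SE 0.0878, adjusted p = 0.0001326, limma). Rb1 overlaps Rcbtb2 and Lpar6 on the opposite strand, and whether the counting used the strand is not stated in the sources used here. Btg2, an antiproliferative factor that is also an immediate early gene, had 75.53, 106.2, 116.38 and 110.06 TPM in polyclonal WT cells and 168.95, 197.05, 184.52 and 172.58 TPM in WT5, a log2 difference of 0.55 (SE 0.132, adjusted p = 0.005755, limma). Plk2, a polo-like kinase induced by p53 and by serum, had 130.33, 135.71, 147.5 and 156.46 TPM in polyclonal WT cells and 188.52, 183.72, 187.19 and 175.45 TPM in WT5. Its TPM did not overlap between the groups, but relative to the library median the log2 difference was 0.08 and did not pass (SE 0.0639, adjusted p = 0.2879, limma).

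Perp stood out among the genes of apoptosis. It encodes a desmosomal membrane protein of epithelia that is also a p53 apoptosis effector, and lies on chromosome 10 from 18845020 to 18857073 (GRCm38). Perp had 51.94, 50.52, 55.12 and 49.22 TPM in polyclonal WT cells and 5.75, 5.21, 4.96 and 4.97 TPM in WT5. Relative to the library median it was 12.1-fold lower in WT5, a log2 difference of -3.60 (SE 0.0679, adjusted p = 1.056e-08, limma) and a z-score difference of -1.14. The longest Perp transcript shares no stretch of 50 bases with any annotated transcript of another gene.

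The nuclear regulators Zmat3 and Trp53inp1 also fell. Zmat3, an RNA-binding zinc finger protein, had 8.58, 7.61, 8.41 and 9.76 TPM in polyclonal WT cells and 3.88, 4.24, 4.8 and 4.48 TPM in WT5, a log2 difference of -1.27 (SE 0.0856, adjusted p = 5.123e-06, limma). Trp53inp1, which promotes p53-dependent death and autophagy, had 6.81, 5.35, 5.89 and 7.1 TPM in polyclonal WT cells and 3.08, 3.23, 3.07 and 2.86 TPM in WT5, a log2 difference of -1.32 (SE 0.0957, adjusted p = 7.702e-06, limma). In both genes every WT5 library was below every polyclonal library.

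The genes of apoptosis went both ways. Of the 13 tested, 7 passed the adjusted p as higher and 5 as lower, beside 31.1% and 34.3% of all genes. Higher were Pidd1, the scaffold of the caspase-2 platform, at 0.89, and Phlda3, an inhibitor of AKT, at 0.79. The BH3-only genes Bbc3 (PUMA) and Pmaip1 (NOXA) were higher at 0.60 and 0.40, Bax, the pore former of mitochondria, at 0.45, the nuclease Aen at 0.42 and the TRAIL receptor Tnfrsf10b at 0.18. Phlda3 ran from 26.08 to 32.37 TPM in polyclonal WT cells and from 58.06 to 63.83 TPM in WT5, and Pidd1 from 2.61 to 3.18 and from 5.74 to 7.08 TPM. Bax shares 13.8% of its 50-base stretches with another gene model. Beside the called genes, Apaf1, which assembles the apoptosome, and Ei24, a membrane protein of the endoplasmic reticulum, were lower at -0.70 and -0.62. Fas had a log2 difference of -1.63, which did not pass (SE 0.634, adjusted p = 0.0469, limma).

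Of the genes of DNA repair and nucleotide supply, Ddb2 and Rrm2b passed as higher and Ak1 as lower, and Polk, Xpc and Ercc5 did not pass. Ddb2, the sensor of ultraviolet damage, had 9.3, 10.16, 11.03 and 10.16 TPM in polyclonal WT cells and 23.41, 23.17, 24.52 and 23.18 TPM in WT5, a log2 difference of 0.93 (SE 0.0510, adjusted p = 1.777e-06, limma). Ddb2 overlaps Acp2 on the opposite strand and shares 22.73% of its 50-base stretches with it, and Acp2 averaged 12.63 TPM in polyclonal WT cells and 24.94 TPM in WT5. Reads of these genes may not have been told apart. Rrm2b, the p53-inducible subunit of ribonucleotide reductase, was higher at 0.16, a pass that depended on the scaling. It shares 10.97% of its 50-base stretches with other gene models and overlaps the pseudogene Gm3362 on the same strand, which averaged 609 TPM in polyclonal WT cells and 2.917 TPM in WT5. Ak1 had 0.33, 0.55, 0.4 and 0.65 TPM in polyclonal WT cells and 0.19, 0.31, 0.1 and 0.27 TPM in WT5, a log2 difference of -1.51 (SE 0.391, adjusted p = 0.008495, limma). These levels are close to the 2 decimals of the tables, and the call was lost when any polyclonal library, WT5 replicate 1 or WT5 replicate 4 was left out.

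Sesn1 had the second largest fall of all members. Sestrin 1 restrains mTORC1 and limits oxidative stress. Sesn1 had 53.2, 52.38, 50.91 and 47.17 TPM in polyclonal WT cells and 12.97, 15.03, 13.34 and 14.49 TPM in WT5, and the groups were far apart. The log2 difference was -2.16 (SE 0.0636, adjusted p = 7.853e-08, limma), or 4.46-fold lower. Ephx1, an epoxide hydrolase, and Slc19a2, a thiamine transporter, were lower at -0.64 and -0.32, of which Slc19a2 was at -0.034 without centring and did not pass under every scaling, and Tigar, which acts on a glycolytic regulator, did not pass (adjusted p = 0.1113, limma).

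Across all lines, the libraries of WT5 and the subclones, as one set, did not overlap with the polyclonal libraries in 15 of the 30 members tested in all of them. Higher than any polyclonal library were Aen, Bax, Ddb2, Mdm2, Mdm4, Phlda3, Pidd1 and Rrm2b, 8 members where 29.1% of 13272 genes behaved so. Lower were Apaf1, Ccng1, Ei24, Perp, Sesn1, Trp53 and Zmat3, 7 members where 16.0% of genes behaved so. The range of TPM of Cdkn1a and Btg2 in the subclones, by contrast, reached that of polyclonal WT cells.

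Against their parent WT5, only Perp, Btg2 and Plk2 among the members were called in a subclone by the 2-fold rule. By the z-score rule no member was called in limma, where 0.152%, 0.144%, 0.173%, 0.202% and 0.173% of 13860 genes were called in subclones 1 to 5. The count was also 0 at an unadjusted p below 0.05 and with an unequal-variance test, as no member reached a z-score difference of 1 in size, and the largest was that of Perp in subclone 1 at -0.55. By the 2-fold rule 3 of the 30 members tested were called in at least 1 subclone. These were Perp in subclones 1 and 4, Btg2 in subclones 2 and 3, and Plk2 in subclone 3, with none in subclone 5. Of all genes, 3.12%, 2.68%, 3.97%, 5.32% and 3.67% were called in subclones 1 to 5. The share of all genes called in at least 1 subclone is not given here. At the adjusted p alone, which 26.4%, 27.7%, 18.6%, 37.1% and 23.0% of all genes passed, subclone 1 had 4 members higher and 6 lower, where 12.1% of all genes were higher and 14.3% lower. Subclone 2 had 4 and 9, where 13.2% and 14.5% of genes were higher and lower. Subclone 3 had 4 and 6, beside 8.88% and 9.74% of genes. Subclone 4 had 7 and 10, beside 19.9% and 17.2%, and subclone 5 had 6 and 6, beside 10.9% and 12.1%. The 5 comparisons share the WT5 libraries. The median log2 difference of the members was -0.047, -0.090, -0.042, -0.054 and -0.080, and that of all genes was at most 0.030 in size.

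Perp moved both ways. It had 1.55, 1.66, 1.47 and 2.0 TPM in subclone 1, 3.64, 3.36, 2.75 and 3.81 in subclone 2, 5.41, 5.57, 5.27 and 5.62 in subclone 3, 11.87, 12.66, 12.75 and 12.47 in subclone 4, and 6.74, 5.53, 6.35 and 6.93 in subclone 5. Subclones 1 and 2 lay below and subclone 4 above every WT5 library, subclones 3 and 5 overlapped with WT5, and all subclones lay far below polyclonal WT cells. Against WT5, Perp was lower in subclone 1 by a log2 difference of -1.62 (SE 0.0953, adjusted p = 4.179e-05, limma). In subclone 4 it was higher by 1.35 (SE 0.0635, adjusted p = 7.222e-06, limma). In subclone 2 the log2 difference of -0.58 passed the adjusted p of 0.003581 (limma) but not the size.

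**Figure D3:**
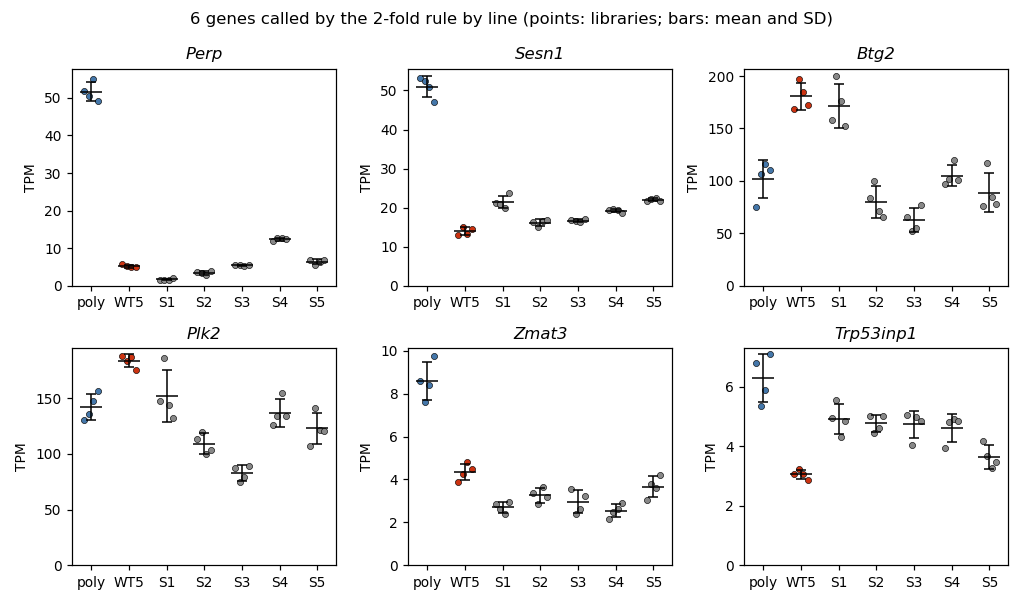
TPM of Perp, Sesn1, Btg2, Plk2, Zmat3 and Trp53inp1 is plotted for each library of the 7 lines (poly, polyclonal WT; S1 to S5, subclones), with a point per library, a horizontal bar for the mean and whiskers for the SD of 4 libraries, and all axes from 0. Perp falls from 51.7 TPM in polyclonal WT cells to 5.22 TPM in WT5 and spans 1.67 TPM in subclone 1 to 12.4 TPM in subclone 4, while Btg2 is close to WT5 in subclone 1 and lowest in subclone 3.

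Btg2 had 158.27, 199.71, 176.0 and 152.8 TPM in subclone 1, close to WT5. It had 83.6, 100.36, 71.54 and 65.86 TPM in subclone 2, 65.56, 51.77, 55.36 and 77.47 in subclone 3, 97.51, 101.89, 119.72 and 100.69 in subclone 4, and 76.12, 116.62, 85.04 and 77.63 in subclone 5. All libraries of subclones 2 to 5 lay below every WT5 library. The log2 difference from WT5 was -1.13 in subclone 2 (SE 0.142, adjusted p = 0.0008303, limma) and -1.45 in subclone 3 (SE 0.0849, adjusted p = 4.269e-05, limma). It was -0.69 in subclone 4 and -0.94 in subclone 5, which passed the adjusted p only. Btg2 in subclone 2 lost its call when the variances were not pooled (adjusted p = 0.01614 from an unequal-variance test).

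Plk2 followed a similar order of lines. Its library values ran from 131.94 to 186.01 TPM in subclone 1, 100.24 to 120.02 in subclone 2, 74.45 to 89.29 in subclone 3, 125.67 to 154.81 in subclone 4 and 107.38 to 141.36 in subclone 5. Subclone 3 lay lowest and did not overlap with any other line. The log2 difference from WT5 in subclone 3 was -1.06 (SE 0.0469, adjusted p = 1.551e-05, limma). Within a line, Btg2 and Plk2 were highest in the same library in 5 of the 7 lines, namely in all 5 subclones, as a description of the libraries.

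Cdkn1a did not reach 2-fold in any subclone. Its log2 differences from WT5 were -0.12, -0.14, -0.19, -0.30 and -0.63 in subclones 1 to 5, of which those in subclone 4 (adjusted p = 0.0005082, limma) and subclone 5 (adjusted p = 8.001e-05, limma) passed the adjusted p. Subclone 5 had 152.68, 175.97, 174.66 and 184.3 TPM, below every library of WT5 and of the other subclones and within the range of polyclonal WT cells plus 1 library below it. Trp53 also had its lowest level there, at 138.74, 176.21, 169.02 and 177.08 TPM, with a log2 difference from WT5 of -0.20 (SE 0.0367, adjusted p = 0.004645, limma). Mdm2 lay between 55.03 and 67.32 TPM over the subclones and passed in none. Mdm4 was higher by 0.45 in subclone 2, 0.50 in subclone 4 and 0.52 in subclone 5, which passed the adjusted p. Cdkn2a passed in subclone 2 alone at -0.26, and Rb1 passed in subclone 2 at 0.44 and in subclone 5 at 0.46.

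**Figure D4:**
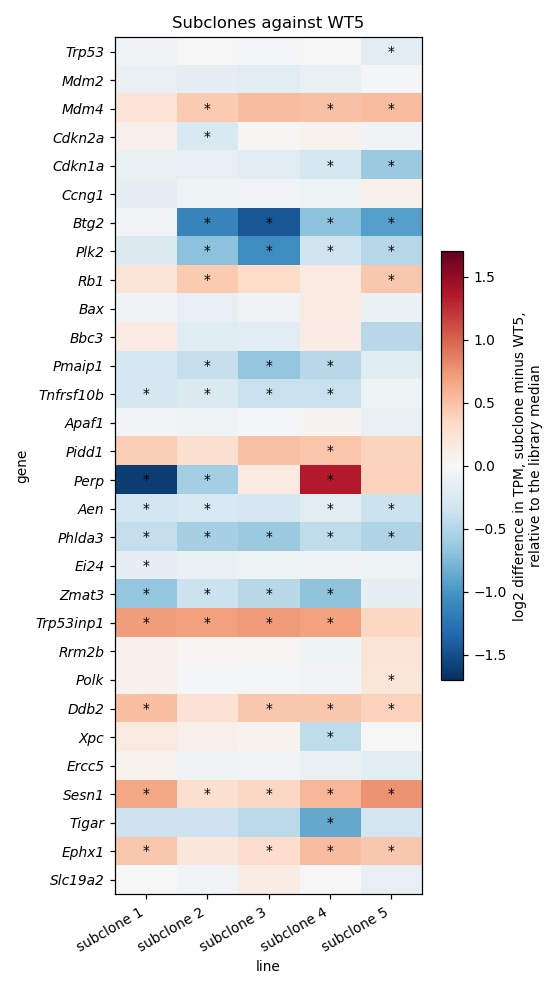
Colour gives the log2 difference in TPM between each of the 5 subclones (columns) and WT5 for the 30 genes tested (rows), with red for higher and blue for lower in the subclone, and a star marks an adjusted p below 0.01 from limma. The strongest colours are Perp in subclone 1 at -1.62 and in subclone 4 at 1.35, and Btg2 in subclone 3 at -1.45.

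Sesn1 and Trp53inp1, which were lower in WT5 than in polyclonal WT cells, were higher in subclones than in WT5. The log2 differences of Sesn1 were 0.66, 0.27, 0.36, 0.56 and 0.76 in subclones 1 to 5, each past the adjusted p, and its library values of 15.01 to 23.68 TPM stayed well below the polyclonal ones. Those of Trp53inp1 were 0.72, 0.70, 0.73 and 0.69 in subclones 1 to 4, past the adjusted p. Zmat3 fell further, with log2 differences of -0.65, -0.37, -0.47 and -0.69 in subclones 1 to 4 that passed the adjusted p. Phlda3 fell in each subclone, with log2 differences of -0.41, -0.56, -0.63, -0.43 and -0.51 in that order. Changes that every subclone shows against WT5 are subject to the limit on the separate tables given above.

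Subclone 4 also had the lowest Xpc, the recognition factor of nucleotide excision repair, and the lowest Tigar. Xpc had 17.88, 19.28, 18.08 and 17.78 TPM there, below every library of the other subclones and of WT5, a log2 difference from WT5 of -0.44 (SE 0.0458, adjusted p = 0.0002041, limma). Tigar had 6.98, 8.41, 6.24 and 7.43 TPM, a log2 difference of -0.87 (SE 0.132, adjusted p = 0.001202, limma).

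Among the 5 subclones, which stand in 1 table, Perp and Btg2 differed by over 2-fold and the means of the other members tested spanned less. A member was called at an adjusted p below 0.01 of the moderated F test over 20 libraries and a range of the 5 means above 1 on the log2 scale. The rule called 2 of 30 members, where it called 5.46% of 14031 genes. Perp spanned 2.96 on the log2 scale, 7.79-fold between subclone 4 and subclone 1 (adjusted p = 3.867e-11, limma). Btg2 spanned 1.40, 2.65-fold between subclone 1 and subclone 3 (adjusted p = 9.161e-06, limma). At the adjusted p alone 13 of 30 members passed, where 24.3% of all genes did, among them Plk2 with a range of 0.81, Bbc3 with 0.62, Xpc with 0.60, Tigar with 0.54, Zmat3 with 0.54, Cdkn1a with 0.51 and Sesn1 with 0.50. The range of Trp53 was 0.19 (adjusted p = 0.004458, limma), and Mdm2, Mdm4, Cdkn2a and Rb1 did not pass. The median range was 0.302 over the members and 0.285 over all genes tested.

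Other lists of the pathway were read beside the 33 genes for WT5 against polyclonal WT cells, with the same 2-fold rule. Of 19 other p53 targets tested, 6 were called higher and 1 lower, where 11.3% and 12.0% of all genes were called, and the median log2 difference was 0.62, against -0.046 over all genes. Gdf15, a stress-induced cytokine, and Trp53i11 were called by both rules, Trp53i11 at 7.23 on the log2 scale (SE 0.583), and Sfn, the 14-3-3 protein sigma, was higher at 2.75. Ptp4a1, a tyrosine phosphatase, was lower at -1.18. Of 19 regulators of p53, 1 was called higher, the kinase Hipk2 at 1.91, and 1 lower, Atm, the kinase that signals double-strand breaks, at -1.88. At the adjusted p alone 4 of these regulators were higher and 10 lower, beside 31.1% and 34.3% of all genes.

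The 2-fold rule called 23.2% of all genes. Of 26 genes of the RB and E2F pathway, the kinase genes Cdk6 and Cdk4 were called, Cdk6 higher at 2.04 and Cdk4 lower at -1.21. Of 21 proliferation genes 1 was called, the replication helicase subunit Mcm3, lower at -1.01, and at the adjusted p alone 9 were higher and 6 lower, against 31.1% and 34.3% of all genes. Of 19 genes of the apoptosis machinery 3 were higher, Cycs (cytochrome c) at 2.12 and Bik and Bcl2 at 1.77 each, and 1 was lower, the BH3-only gene Bmf at -1.99. In the subclones against WT5 few genes of these lists were called. Cdkn1c, the CDK inhibitor p57, was lower in subclone 1 at -1.12 and in subclone 5 at -1.95 and higher in subclone 3 at 1.03 and in subclone 4 at 1.11. Ccnd1, cyclin D1, was lower in subclone 1 at -1.13 and in subclone 2 at -1.09 and higher in subclone 5 at 1.04. Among the other p53 targets, Ddit4, an inhibitor of mTORC1, was lower in subclone 2 at -1.06 and in subclone 5 at -1.22, and Gdf15 was lower in subclone 3 at -1.01. In the apoptosis machinery Bik was higher in subclone 4 at 1.14.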

How the data were processed

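RNA of 28 libraries was sequenced. The authors aligned reads to GRCm38 with STAR 2.7.3a and quantified genes with RSEM 1.3.1, and TPM values were deposited by the authors in a table of polyclonal WT and WT5 and another of the subclones. TPM keeps no read totals, so no counting error is given. Here the tables were joined by gene identifier and log2(TPM) was taken without a pseudocount over the genes whose TPM was above 0 in every library compared. It was centred on each library's median (2-fold rule) or z-scored (z-score rule), and groups were compared by limma 3.58.1 in R 4.3.3, two-sided, with Benjamini-Hochberg adjustment. Figures used matplotlib 3.10.9. The procedure was tested on simulated data without a shift of all genes between the groups, so that test does not bear on the centring. The members and lists were chosen with earlier results of these data known. Named in full were Trp53, Mdm2, Mdm4, Cdkn1a, Cdkn2a, Rb1 and every member called, and, of other lists, genes called by the z-score rule or the 3 with the largest change each way. Not every gene of the other lists is reported here. Other members were named with values after these had been seen. Gene models are GENCODE M21 and promoters RefSeq. Replicate numbers do not pair the libraries.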

Additional observations from a re-analysis of the deposited data

Results flagged for a closer look

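The 91 groups of 4 libraries formed by the 13 genes described in full and the 7 lines were screened with Dixon's test for a library apart from the others, which chance passes in about 1 in 20 groups. It found 1, Trp53inp1 in subclone 4, where replicate 1 had 3.93 TPM and the other libraries between 4.81 and 4.92 TPM. Perp and Btg2 differed among the subclones by the moderated F test of limma. Their means spanned 2.96 on the log2 scale for Perp (adjusted p = 3.867e-11) and 1.40 for Btg2 (adjusted p = 9.161e-06), and both were called whichever library was left out.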

How the results depend on the processing

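The number of members called was 1 and 5 between WT5 and polyclonal WT cells (z-score and 2-fold rule), 0 and 3 in the subclones against WT5, and 2 among the subclones. When each library was left out in turn, these counts lay between 1 and 1, 4 and 5, 0 and 0, 3 and 3, and 2 and 2. With the replicate number as a block they were 1, 5, 0, 3 and 2, as without it. Same-numbered libraries of WT5 and polyclonal WT cells had deviations correlated between -0.0186 and 0.00633, so the numbers were not taken to pair them. Without a requirement on the size, 26 and 25 members passed between WT5 and polyclonal WT cells (z-scores and log2 differences). On the log2 differences 65.4% of all genes did so. In at least 1 subclone against WT5, 21 and 22 members passed. In single subclones between 18.6% and 37.1% of all genes passed on the log2 differences. Among the subclones 13 members passed, where 24.3% of all genes did. The shares of all genes on the z-scores and in at least 1 subclone are not given here. With genes above 0 in any library and log2(TPM + 0.1), 0 and 20 members were called between WT5 and polyclonal WT cells. The share of all genes called in that setting is not given here. In the same setting Trp53, Cdkn2a and Rb1 changed to log2 differences of 0.42, 0.67 and 0.19 (the cause was not tested). Without centring Cdkn2a had 0.042, and Zmat3 at -0.98 lost its call. Over all alternatives, 558 values of single genes kept their direction and their side of the threshold, 14 lost the call and 11 gained one. Depth is unknown, so no limit from counting can be set for low genes such as Ak1, which lost its call under an unequal-variance test and with a pseudocount of 1.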
